A study of Mus musculus with 16 samples.

Results

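The genes described here encode the TGF-beta, BMP and activin pathways: ligands, the protease and binding proteins that act on ligands outside the cell, receptors, SMAD proteins and the ID genes that SMADs switch on. The set is a list of 47 genes named by pathway role, and 46 of them have a row among the 16091 genes of the deposited table. Grem1, a secreted BMP antagonist, has no row and was not analysed here. Of the 46, 41 passed the filter on low values among 14189 genes tested. All 41 were above 24.49 normalized counts, the value that stands for 1 CPM (counts per 1e6 of the median column total), in all 16 libraries, so no member passed only through the group in which it was high. The 5 genes left out as low were Bmp5, Gdf15, Inhba, Nog and Bmpr1b.

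The tissue was inguinal white adipose tissue, the subcutaneous fat depot of the mouse groin, whose poly-A RNA was sequenced from C57BL6/J mice in 4 groups of 4 libraries. The groups were high-fat diet with antibody, high-fat diet untreated, control diet with antibody and control diet untreated. The antibody, AF1447, binds PDGFcc, a platelet-derived growth factor ligand, and was injected into the peritoneum every 2 days for 2 weeks, in mice aged 6 weeks; each dose was 50 mg/kg, dissolved in PBS to a volume of 100 µl. The labels used here do not say what, if anything, untreated mice were injected with, how long the diets lasted or whether each library is a separate animal, so the p-values measure the spread between these libraries, which may be partly technical. Whole fat was used, and fewer cells of a type and less RNA per cell cannot be told apart in such bulk samples.

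TGF-beta, BMP and activin ligands are secreted dimers that bring together type I and type II receptor kinases on the cell surface. The type I receptor then phosphorylates receptor-regulated SMADs: SMAD2 and SMAD3 mainly below TGF-beta and activin receptors, and SMAD1, SMAD5 and SMAD9 mainly below BMP receptors. These join SMAD4 and enter the nucleus, where they switch on targets that include their own inhibitors SMAD6, SMAD7 and BAMBI, so the pathway restrains itself. In fat, the balance of BMP and TGF-beta signals is known to bear on whether progenitor cells become adipocytes or matrix-producing fibroblasts, and activin B acts through the receptor ALK7 (Acvr1c) in adipocytes to restrain lipid breakdown.

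The promoters of the 4 pathway genes that passed the test for the antibody are shown because these genes moved in the same direction and SMAD-binding motifs have known letters. The sequences are RefSeq's, on GRCm38.p6, from 250 bases before to 50 bases after the annotated start, read 5′ to 3′ along the gene's strand. Capitals mark CAGAC, a short SMAD-binding motif, or GTCTAGAC, its palindromic form, searched on both strands (CAGAC on the opposite strand reads GTCTG).
Inhbb, chr1:119422199-119422498, minus strand: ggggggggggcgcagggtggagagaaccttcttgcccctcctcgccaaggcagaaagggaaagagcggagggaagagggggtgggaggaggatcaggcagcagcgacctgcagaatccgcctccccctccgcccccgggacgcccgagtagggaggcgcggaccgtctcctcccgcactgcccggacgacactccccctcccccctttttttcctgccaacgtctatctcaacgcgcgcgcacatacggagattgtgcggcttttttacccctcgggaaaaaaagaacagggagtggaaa
Tgfb2, chr1:186705940-186706239, minus strand: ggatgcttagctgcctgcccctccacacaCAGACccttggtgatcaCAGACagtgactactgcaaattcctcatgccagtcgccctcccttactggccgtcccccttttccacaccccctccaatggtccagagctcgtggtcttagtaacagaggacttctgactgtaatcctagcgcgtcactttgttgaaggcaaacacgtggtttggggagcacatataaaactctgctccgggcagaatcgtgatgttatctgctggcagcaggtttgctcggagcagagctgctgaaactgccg
Smad6, chr9:64022010-64022309, minus strand: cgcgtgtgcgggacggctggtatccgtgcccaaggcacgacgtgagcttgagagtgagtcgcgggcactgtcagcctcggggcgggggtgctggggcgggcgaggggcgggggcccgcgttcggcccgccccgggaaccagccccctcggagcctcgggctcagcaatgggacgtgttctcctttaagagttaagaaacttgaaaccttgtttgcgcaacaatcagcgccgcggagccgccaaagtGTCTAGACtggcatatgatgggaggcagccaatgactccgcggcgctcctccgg
Id3, chr4:136143572-136143871, plus strand: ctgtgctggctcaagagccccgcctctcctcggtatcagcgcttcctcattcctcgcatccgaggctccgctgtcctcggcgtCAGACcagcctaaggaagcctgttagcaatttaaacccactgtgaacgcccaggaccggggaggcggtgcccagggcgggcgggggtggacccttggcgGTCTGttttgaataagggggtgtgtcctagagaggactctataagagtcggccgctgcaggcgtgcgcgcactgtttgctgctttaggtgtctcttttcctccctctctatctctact
The Smad6 window held GTCTAGAC across the start, from base -4 to base 4. The Tgfb2 window held CAGAC on its own strand at -221 and -204, and the Id3 window held it at -167 on its own strand and at -68 on the opposite strand. The Id3 positions count from RefSeq's start. The whole Id3 window lies inside the gene's bounds in the GENCODE annotation (136143497-136145755), which starts the gene further upstream. The Inhbb window held neither motif. Of 32851 promoter windows of the same length, 70 (0.213%) held GTCTAGAC and 49.6% held CAGAC, and another motif, GGCGCC, a GC-rich BMP-response motif, was in 11.9% of them and in none of these 4. Among 27 tested pathway genes with an entry, 1 window held GTCTAGAC, 11 held CAGAC and 9 held GGCGCC. A match is a description of letters, not a site at which a factor was shown to bind.

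The levels set the scene for the comparisons. Per kilobase of exon, the pathway genes spanned from Fstl1, a secreted follistatin-like glycoprotein of mesenchymal cells, at a median of 3271 normalized counts per kb over the 16 libraries, to Bmpr1b, a BMP type I receptor, at 1.05. After Fstl1 came the co-receptor Tgfbr3 (betaglycan, which presents TGF-beta to its receptors) at 926.2 normalized counts per kb, Id3 at 826.4 and the TGF-beta type II receptor Tgfbr2 at 793.4. Fstl1 stood at the 98.4th percentile of all genes in the table by this measure. Among ligands, Inhbb, the subunit of activin B, at 369.3 and Gdf10 at 330.8 normalized counts per kb were highest, whereas Inhba, the subunit of activin A, was at 2.71. The 3 TGF-beta ligands differed in level: Tgfb3 had a median of 165.6 normalized counts per kb and Tgfb2 of 24.1, with Tgfb1 between them. Among type I receptors, Acvr1c (ALK7, an activin and GDF receptor typical of adipocytes) at 452.8 and the BMP receptor Bmpr1a at 435.1 normalized counts per kb led. Of the SMADs, the common partner Smad4 at 368.1 and Smad5 at 329.2 normalized counts per kb were highest, and Smad9 at 8.04 was lowest.

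**Figure D1:**
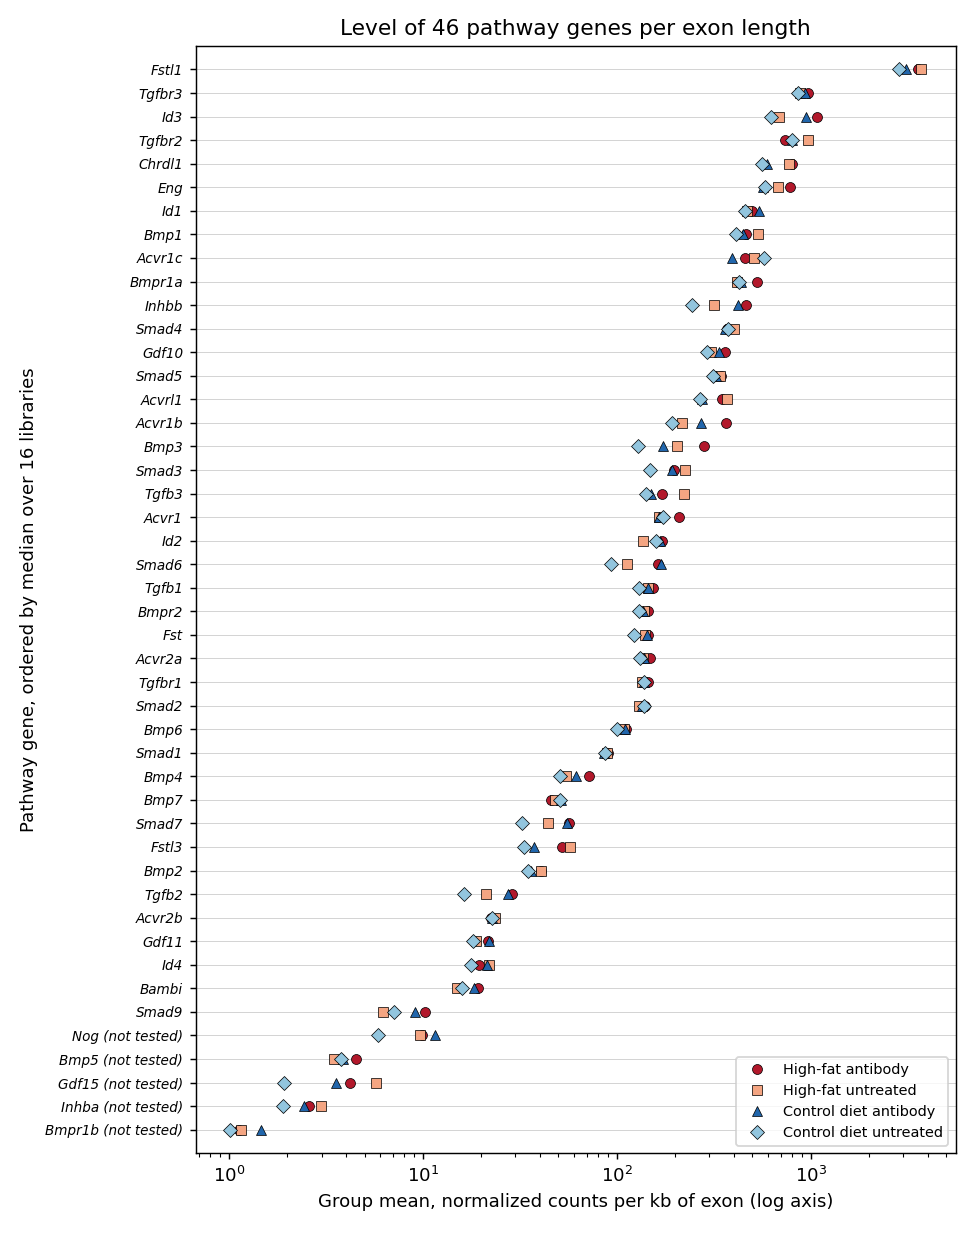
Group means of 46 pathway genes in normalized counts per kb of exon (log axis), ordered by the median over 16 libraries, with 1 symbol per group of 4 libraries; the 5 genes left out as low are marked. Fstl1 stands alone at the top, at a median of 3271, and the 5 untested genes have medians between 1.05 and 7.96 normalized counts per kb.

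Among the SMADs that carry the signal, Smad4, Smad5, Smad2 and Smad1 varied least of all 46 members: between the lowest and the highest of the 16 libraries they differed 1.19-fold, 1.23-fold, 1.28-fold and 1.35-fold. Smad3 differed 1.89-fold and Smad9 2.56-fold. Exons of 5 members overlap exons of another gene with a row, so their values are uncertain to that extent: Fstl3 with Prss57 (1157 bases), Acvr2a with Orc4 (446), Bmp6 with Txndc5 (224) and Eng with Fpgs (61), all on opposite strands, and Tgfbr3 with Gm43422 (297) on the same strand. For the overlaps on opposite strands this depends on the strand of counting, which is not stated.

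The first question is what the antibody against PDGFcc did to these genes, averaged over both diets. A ligand subunit of activin, a TGF-beta ligand, an inhibitory SMAD and an ID gene rose, by 1.55- to 1.71-fold, and no member fell past the threshold. In limma's test across all genes, with Benjamini-Hochberg adjusted p under 0.05 as the threshold, 4 of 41 pathway genes passed, all higher with antibody, beside 2.52% of all genes tested in either direction and 1.54% higher. Of the 41 changes, 34 were positive, beside 47.6% of all genes, and their median log2 change was 0.09 beside -0.01 over all genes. Here and throughout, log2 changes are on the log2(value + 1) scale, which understates the change of low genes.

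Inhbb (ENSMUSG00000037035, chromosome 1, 119415465-119422248, minus strand) encodes the beta subunit of activin B. It had 2008, 1633, 2521 and 1767 normalized counts in the high-fat antibody libraries, against 1513, 1629, 1043 and 1236 in the high-fat untreated libraries. On the control diet it had 1475, 1663, 1789 and 2282 normalized counts with antibody, against 1413, 802, 844 and 1117 untreated. On each diet every antibody library was above every untreated one, although by little at the edges. The log2 change averaged over diets was 0.68 ± 0.14 (SE), a 1.6-fold higher level, with adjusted p = 0.0216 from limma.

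Tgfb2 (ENSMUSG00000039239, chromosome 1, 186622792-186705989, minus strand) encodes a TGF-beta ligand. Its values were 141, 201, 145 and 181 normalized counts in high-fat antibody libraries, against 109, 138, 102 and 140 in high-fat untreated libraries. Its control-diet values were 150, 175, 139 and 176 normalized counts with antibody, against 134, 102, 59 and 82 untreated. Again the groups did not overlap on either diet, and the lowest value of all belonged to an untreated control-diet library. The log2 change averaged over diets was 0.63 ± 0.15 (SE; adjusted p = 0.0370, limma).

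Smad6 (ENSMUSG00000036867, chromosome 9, 63953076-64022059, minus strand) encodes an inhibitory SMAD that mainly restrains BMP signalling. It had 570, 499, 467 and 554 normalized counts in high-fat antibody libraries, against 629, 295, 278 and 251 in high-fat untreated libraries. The control-diet values were 474, 505, 526 and 670 normalized counts with antibody, against 218, 205, 367 and 402 untreated. High-fat untreated replicate 1 stood above every high-fat antibody library, and apart from it the groups did not overlap. The change averaged over diets, 0.77 ± 0.19 on the log2 scale (SE; adjusted p = 0.0427, limma), was the highest among the 41.

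Id3 (ENSMUSG00000007872, chromosome 4, 136143497-136145755, plus strand) encodes a helix-loop-helix protein that blocks differentiation factors and is a direct BMP target in many cells. It had 1808, 2130, 2249 and 1543 normalized counts in high-fat antibody libraries, against 1390, 1502, 1157 and 836 in high-fat untreated libraries. Control-diet libraries had 1448, 1458, 1824 and 2067 normalized counts with antibody, against 846, 1208, 741 and 1655 untreated. The groups did not overlap on the high-fat diet, whereas on the control diet untreated replicate 4 lay within the antibody range. The log2 change averaged over diets was 0.67 ± 0.17 (SE; adjusted p = 0.0452, limma), and the other ID genes did not pass: 0.18 for Id1, 0.20 for Id2 and 0.06 for Id4.

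**Figure D2:**
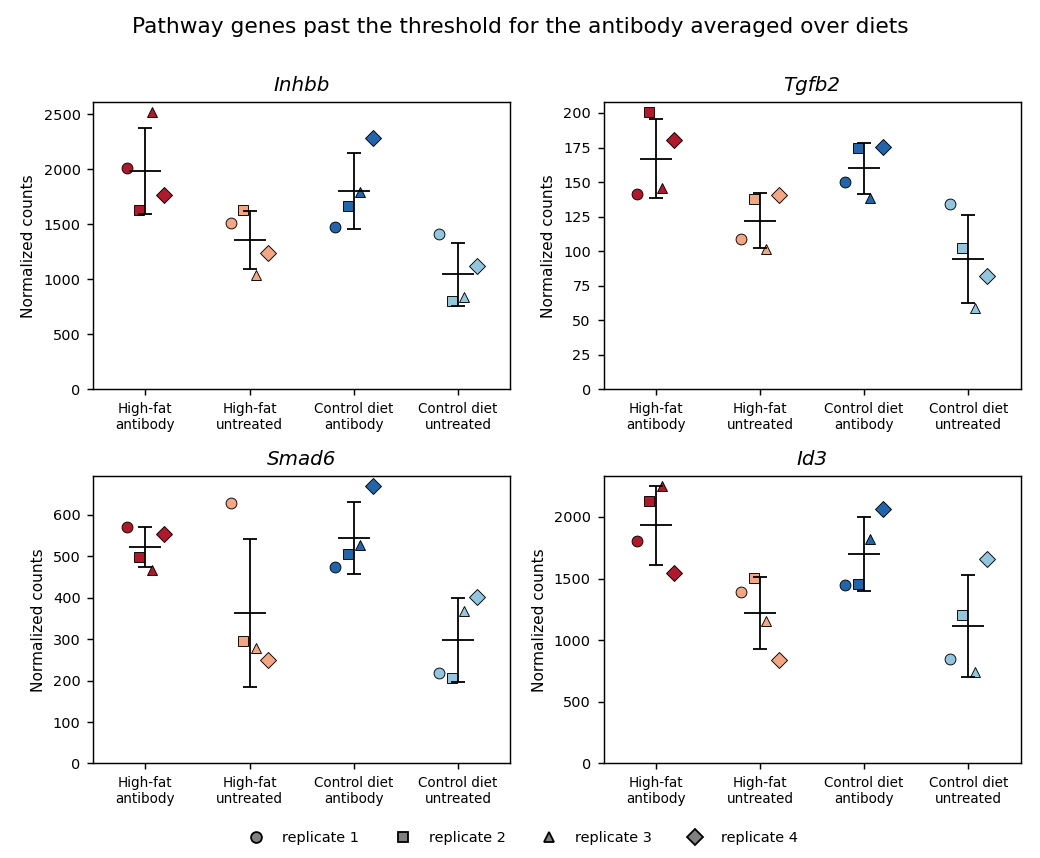
Normalized counts of Inhbb, Tgfb2, Smad6 and Id3 in each library (symbols by replicate number), with the mean and SD of each group of 4 (bars). The antibody groups stand above the untreated group of the same diet, with high-fat untreated replicate 1 the exception for Smad6 (629) and control-diet untreated replicate 4 for Id3 (1655).

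These calls lay close to the threshold. When each of the 16 libraries was left out in turn, Inhbb kept its call in 13 fits; its adjusted p was 0.0518 without control-diet untreated replicate 2, 0.0508 without control-diet antibody replicate 4 and 0.0515 without high-fat untreated replicate 4. Tgfb2 passed in 6 of the 16 fits, those without high-fat antibody replicate 1 or 3, high-fat untreated replicate 1 or 2 or control-diet untreated replicate 1 or 3, and its adjusted p ran from 0.0114 to 0.0862. Smad6 passed in 3, without high-fat untreated replicate 1 (0.00494) or control-diet untreated replicate 3 (0.0348) or 4 (0.0281), and reached 0.0960 otherwise. Id3 passed in 3, without high-fat untreated replicate 1 (0.0397) or 2 (0.0384) or control-diet untreated replicate 4 (0.0146), and reached 0.1003 otherwise. The log2 change stayed between 0.53 and 0.92 for all 4 genes in all of these fits. Without both libraries that earlier results of these data had set apart, control-diet untreated replicate 3 and high-fat untreated replicate 2, 5 members passed (Acvr1c, Id3, Inhbb, Smad9 and Tgfb2), and Smad6 had an adjusted p of 0.0535. In that fit 428 of all 14189 genes passed.

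Further members had positive changes without passing. Smad7, which blocks TGF-beta and BMP receptors, had 0.56 ± 0.17 on the log2 scale (SE), short of the threshold (adjusted p = 0.0942, limma), and its means were 256 ± 89.3 and 199 ± 51.7 normalized counts in antibody and untreated high-fat libraries and 251 ± 42.0 and 147 ± 22.4 in antibody and untreated control-diet libraries (SD, n = 4 each). Bmp4, a BMP ligand that commits progenitors to the fat lineage, had 0.35 ± 0.11 (SE; adjusted p = 0.110). Bambi, a pseudoreceptor without kinase activity, had 0.31 ± 0.14 (SE; adjusted p = 0.271). Smad7, Bmp4 and Bambi are named here after their values were seen.

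Acvr1b (ALK4), the activin type I receptor, had 1339, 2490, 1545 and 1104 normalized counts in high-fat antibody libraries, against 921, 1064, 667 and 1198 in high-fat untreated libraries. Control-diet libraries had 1159, 1225, 983 and 1444 normalized counts with antibody, against 681, 983, 1022 and 713 untreated. The groups overlapped on both diets, and the high-fat antibody group was spread by replicate 2. The log2 change was 0.61 ± 0.16 (SE; adjusted p = 0.0631, limma).

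Acvr1c (ALK7), a receptor of the same kind, had the opposite sign, -0.34 ± 0.10 on the log2 scale (SE; adjusted p = 0.0895, limma). Its values were 4913, 4225, 3849 and 4097 normalized counts in high-fat antibody libraries, against 5200, 3811, 4580 and 5392 in high-fat untreated libraries. On the control diet they were 3720, 3881, 3934 and 3121 normalized counts with antibody, against 4892, 5594, 6694 and 4190 untreated. The control-diet groups did not overlap, and the high-fat groups did.

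Smad9, the least abundant of the SMADs here, had 44, 57, 55 and 63 normalized counts in high-fat antibody libraries, against 29, 51, 28 and 25 in high-fat untreated libraries. On the control diet it had 56, 42, 41 and 57 normalized counts with antibody, against 29, 38, 47 and 39 untreated. High-fat untreated replicate 2 stood apart from the other 3 of its group. The log2 change averaged over diets was 0.55 ± 0.16 (SE; adjusted p = 0.0848, limma).

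By role, 2 of 11 tested ligands rose with antibody averaged over diets and 9 did not pass, with a median log2 change of 0.23. None of 13 receptors and co-receptors passed (median 0.07), 1 of 8 SMADs rose (median 0.07), none of 5 extracellular proteins passed (median 0.06) and 1 of 4 ID genes rose (median 0.19). Of all genes tested, 1.54% were called higher in this comparison. The most abundant extracellular proteins, Fstl1 and Chrdl1, a BMP-binding chordin-like protein, had log2 changes of 0.06 ± 0.13 and 0.09 ± 0.14 (SE). The most abundant receptors, Tgfbr3 and Tgfbr2, had 0.13 ± 0.10 and -0.16 ± 0.13 (SE).

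**Figure D3:**
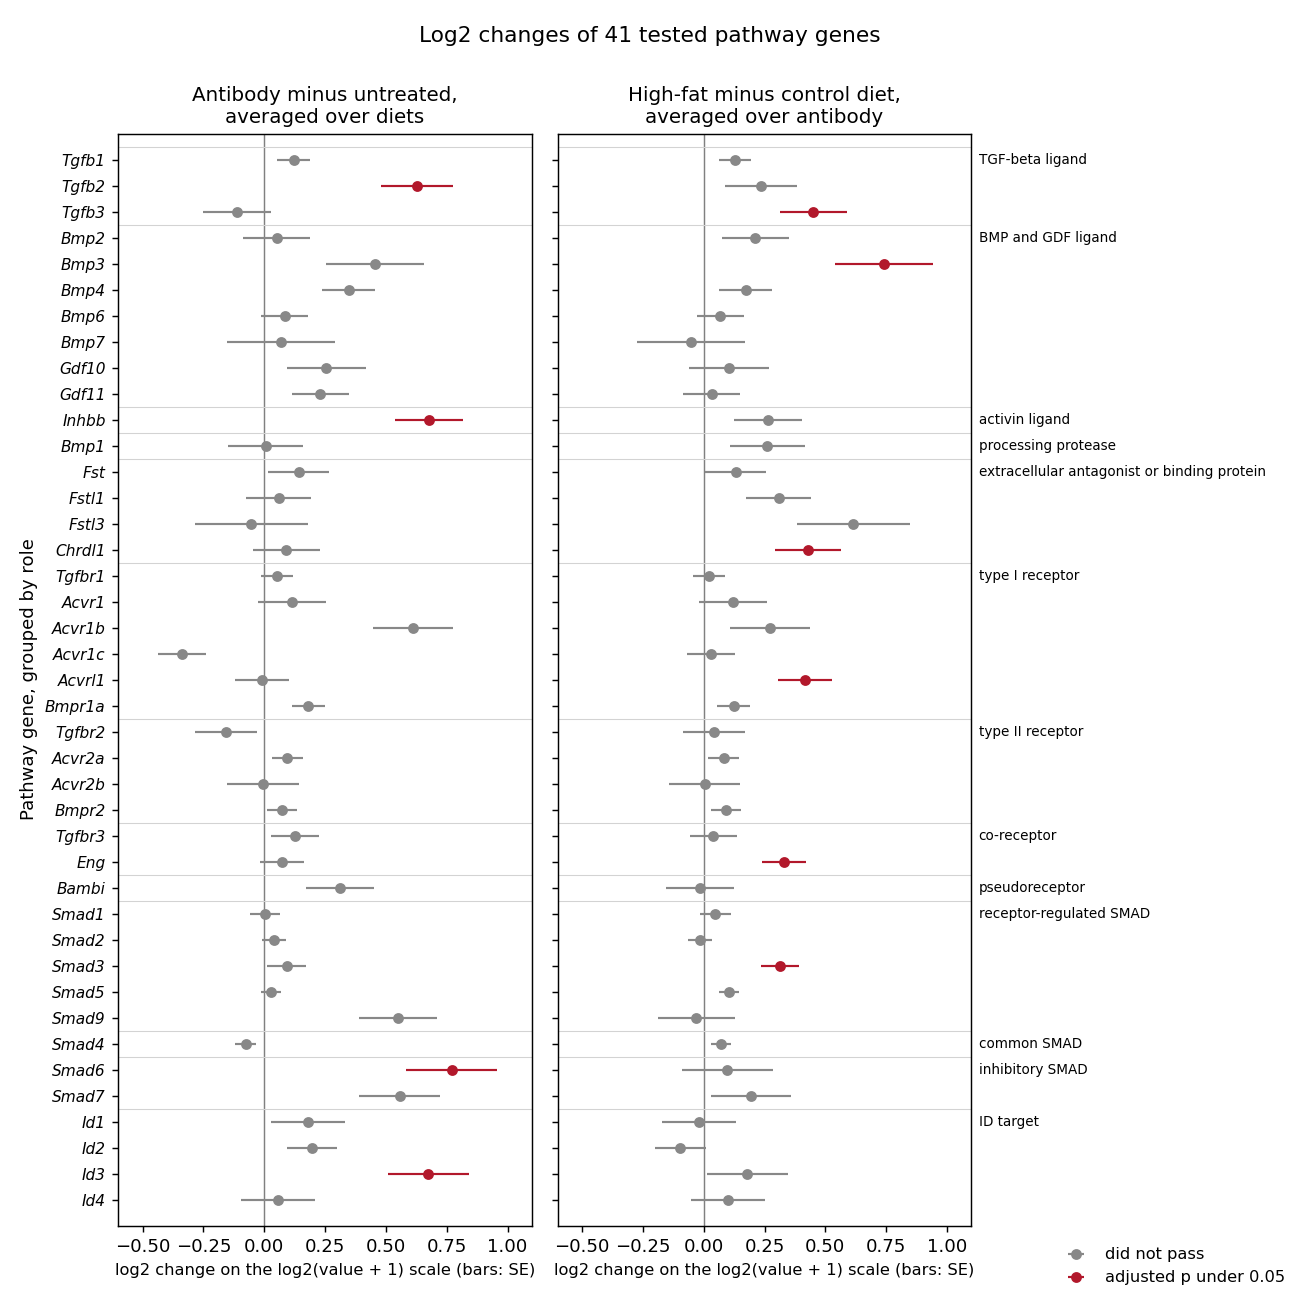
Log2 change of 41 tested pathway genes, grouped by role, with bars of 1 SE; on the left for antibody minus untreated averaged over diets, on the right for high-fat minus control diet averaged over antibody, with changes past the threshold in red. The 4 genes in red on the left (Inhbb, Tgfb2, Smad6 and Id3) and the 6 on the right (Tgfb3, Bmp3, Chrdl1, Acvrl1, Eng and Smad3) are all on the positive side and share no member.

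Within a single diet no pathway gene passed. On the high-fat diet 0 of 41 passed at an adjusted p under 0.05 in limma, beside 0.0775% of all genes, and 9 had an unadjusted p under 0.05, beside 13.5% of all genes. In 6 genes every high-fat antibody library was above every high-fat untreated one, beside 3.91% of all genes: Bmpr1a, Id3, Inhbb, Bmp4, Id2 and Tgfb2. Bmpr1a, the BMP type I receptor with the highest level per exon length here, had 3036, 3966, 3525 and 2884 normalized counts in these antibody libraries, against 2525, 2684, 2600 and 2810 in the untreated ones. Its control-diet values were 2622, 2978, 2620 and 2839 normalized counts with antibody, against 2388, 3018, 2716 and 2690 untreated, so the groups were apart on the high-fat diet and overlapped on the control diet. Its log2 change was 0.33 on the high-fat diet (adjusted p = 0.160) and 0.04 on the control diet, and in the same comparison on the high-fat diet Smad9 had 0.74 (0.165) and Acvr1b 0.71 (0.187). Without high-fat untreated replicate 1, 1 gene, Smad6, passed on the high-fat diet, and over the 16 fits that left out a library the count was 0 or 1. Without high-fat untreated replicate 1, 271 of all 14189 genes passed.

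On the control diet 0 of 41 passed, beside 0.0987% of all genes, and 8 had an unadjusted p under 0.05, beside 11.6% of all genes. In 5 genes every antibody library was above every untreated one, beside 3.43% of all genes: Inhbb, Tgfb2, Smad6, Smad3 and Smad7. In 1 gene, Acvr1c, every antibody library was below every untreated one, beside 3.33% of all genes, with a log2 change of -0.53 (adjusted p = 0.151). Inhbb had 0.81 (0.119) and Tgfb2 0.81 (0.139) on the log2 scale.

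Markers of other cell types give the setting of these values. Summed over 9 skeletal muscle markers, the level was 1185 to 9228 normalized counts in high-fat antibody libraries and 6522 to 490009 in high-fat untreated libraries, the last in replicate 2. It was 29436 to 164581 in control-diet antibody libraries and 1355 to 30697 in control-diet untreated ones. With the muscle level as a covariate, 4 members passed for the antibody averaged over diets: Acvr1b, Inhbb, Smad6 and Tgfb2, and the adjusted p of Id3 was 0.0660. In that fit 303 of all 14189 genes passed. Of 6 markers of mural cells, which wrap small vessels, 2 rose with antibody averaged over diets: Kcnj8 by 0.71 ± 0.12 and Cspg4 by 0.64 ± 0.13 on the log2 scale (SE; adjusted p = 0.00880 and 0.0171, limma). In this comparison 1.54% of all genes were called higher and 47.6% had a positive change. Of the 6 mural markers, 4 had positive changes, with a median of 0.09 beside -0.01 over all genes. The summed mural level was 13261 to 15788 normalized counts in high-fat antibody and 11229 to 20972 in high-fat untreated libraries. It was 15751 to 19722 in control-diet antibody and 13138 to 15314 in control-diet untreated libraries. In each of the 4 groups the library with the highest mural sum also had the highest muscle sum. This was replicate 1 with antibody on the control diet and replicate 2 in the other groups. The part of muscle in the mural sums was not tested. None of the 6 mural markers was at or under 1 CPM throughout a group. The part of mural cells in the rise of Inhbb, Tgfb2, Smad6 and Id3 was not tested.

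The next question is what the high-fat diet did, averaged over antibody treatment. A receptor-regulated SMAD, a pair of endothelial receptors, a TGF-beta and a BMP ligand and a BMP-binding protein rose, by 1.24- to 1.67-fold. Of 41 members 6 passed, all higher on the high-fat diet, beside 19.4% of all genes in either direction and 8.28% higher. Of the 41 changes 35 were positive, beside 54.1% of all genes, with a median log2 change of 0.11 beside 0.02 over all genes.

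Bmp3, a BMP-family ligand known to oppose BMP signalling in bone, showed the highest change of the set. It had 1764, 2057, 2561 and 1948 normalized counts in high-fat antibody libraries, against 925, 874, 1345 and 1953 in control-diet antibody libraries. Without antibody it had 1781, 1763, 1037 and 1441 normalized counts on the high-fat diet, against 1520, 663, 965 and 674 on the control diet. The diets overlapped both with and without antibody, through 1 high control-diet library in each. The log2 change was 0.74 ± 0.20 (SE; adjusted p = 0.0218, limma; chromosome 5, 98854415-98884396).

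Tgfb3 (chromosome 12, 86056745-86079041) encodes the TGF-beta ligand with the highest level here. It had 529, 558, 677 and 563 normalized counts in high-fat antibody libraries, against 412, 457, 547 and 624 in control-diet antibody libraries. Without antibody it had 658, 808, 664 and 871 normalized counts on the high-fat diet, against 686, 492, 311 and 418 on the control diet. The values ran highest in the high-fat untreated group, and control-diet untreated replicate 1 lay within its range. The log2 change was 0.45 ± 0.14 averaged over antibody (SE; adjusted p = 0.0349, limma).

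Smad3 (chromosome 9, 63646767-63757994), the transcription factor that carries TGF-beta and activin signals to matrix genes, had 1104, 883, 1233 and 1163 normalized counts in high-fat antibody libraries, against 1090, 1031, 947 and 1192 in control-diet antibody libraries. Without antibody it had 1140, 1375, 1264 and 1183 normalized counts on the high-fat diet, against 908, 741, 921 and 729 on the control diet. The diets were apart without antibody and overlapped fully with it. The log2 change averaged over antibody was 0.31 ± 0.08 (SE; adjusted p = 0.0170, limma).

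Acvrl1 (ALK1; chromosome 15, 101128522-101145336) and Eng (endoglin; chromosome 2, 32646595-32682669) form the BMP9 and BMP10 receptor of endothelial cells. Acvrl1 had 1295, 1369, 1746 and 1519 normalized counts in high-fat antibody libraries and 1468, 1567, 1565 and 1696 in high-fat untreated libraries. On the control diet it had 1079, 1029, 1230 and 1370 normalized counts with antibody and 1568, 1169, 824 and 999 untreated, and the untreated libraries were spread more widely on the control diet than on the high-fat diet. Eng had 2629, 2544, 3674 and 3750 normalized counts in high-fat antibody libraries and 3201, 2590, 2598 and 2615 in high-fat untreated libraries. Its control-diet values were 2493, 1946, 2314 and 2444 normalized counts with antibody and 2502, 2474, 2198 and 2217 untreated. All 8 high-fat libraries were above all 8 control-diet libraries for Eng, which was so for 0.437% of all genes and for no other pathway gene. The log2 changes were 0.42 ± 0.11 for Acvrl1 and 0.33 ± 0.09 for Eng (SE; adjusted p = 0.0206 and 0.0232, limma).

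Chrdl1 (chromosome X, 143285674-143394262), which binds and blocks BMP4 outside the cell, had 6385, 6322, 4388 and 4651 normalized counts in high-fat antibody libraries, against 3565, 4485, 3958 and 4055 in control-diet antibody libraries. Without antibody it had 4075, 3954, 7016 and 5814 normalized counts on the high-fat diet, against 3372, 5129, 3276 and 3435 on the control diet. On each side of the comparison the groups overlapped, and control-diet untreated replicate 2 stood apart from the other 3. The log2 change was 0.43 ± 0.14 (SE; adjusted p = 0.0392, limma).

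**Figure D4:**
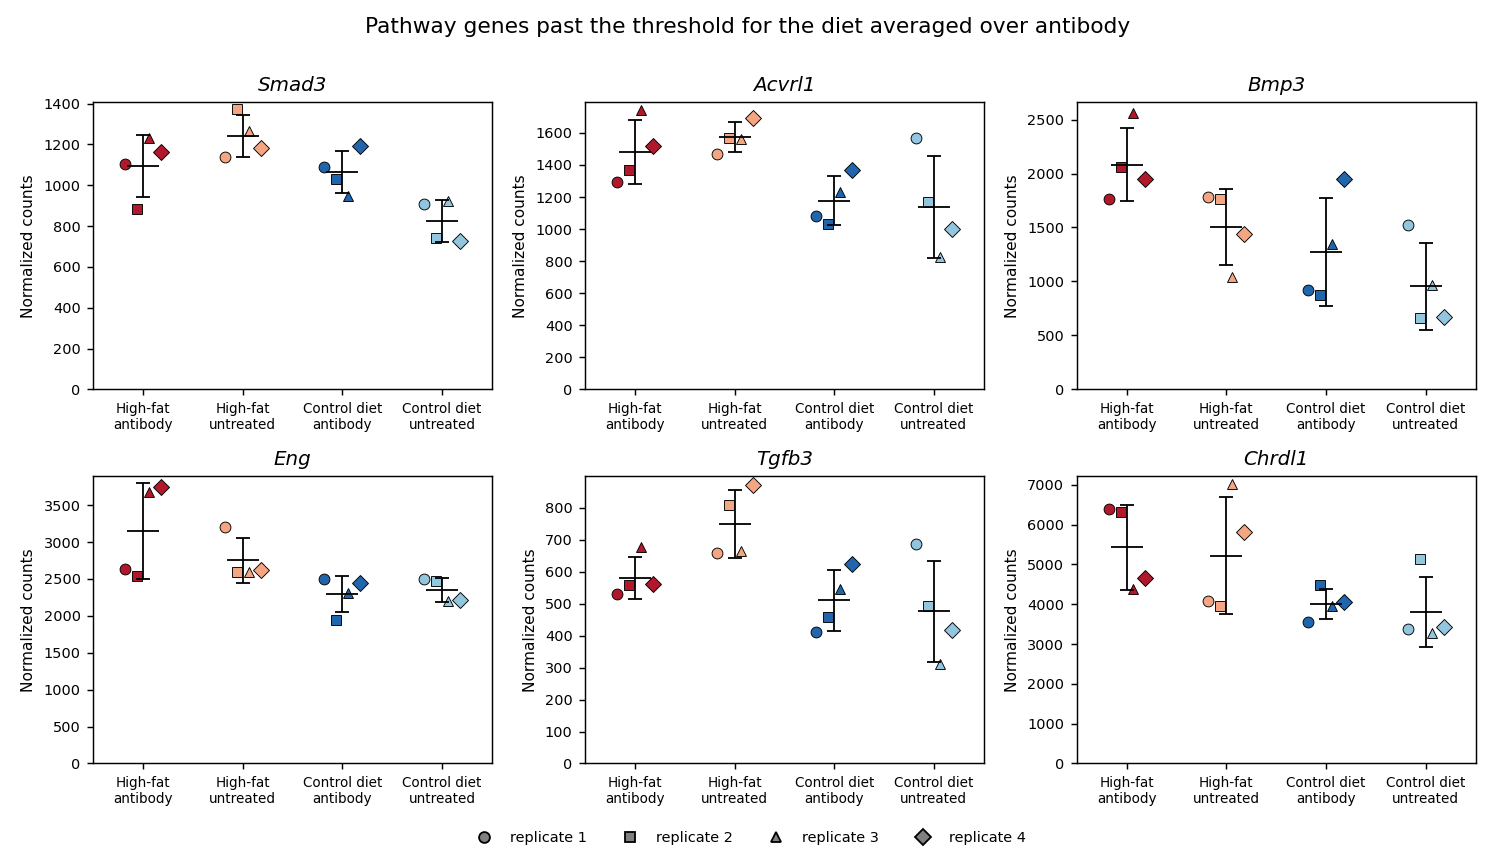
Normalized counts of Smad3, Acvrl1, Bmp3, Eng, Tgfb3 and Chrdl1 in each library (symbols by replicate number), with the mean and SD of each group of 4 (bars). Eng separates the 8 high-fat libraries (2544 and above) from the 8 control-diet libraries (2502 and below), and Smad3 separates the diets among untreated libraries and not among antibody libraries.

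Smad3, Acvrl1 and Bmp3 passed for the diet averaged over antibody in all 16 fits that left out a library, with adjusted p up to 0.0404, 0.0461 and 0.0499. Eng passed in 15, and had 0.0505 without control-diet antibody replicate 2. Tgfb3 passed in 8, with 0.00318 without control-diet untreated replicate 1 and up to 0.0726, without control-diet antibody replicate 1; it also missed without control-diet antibody replicate 2, control-diet untreated replicate 3 or 4, high-fat antibody replicate 3 or 4 or high-fat untreated replicate 2 or 4. Chrdl1 passed in 6, without control-diet untreated replicate 1 or 2, high-fat untreated replicate 1 or 2 or high-fat antibody replicate 3 or 4, and its adjusted p ran from 0.0212 to 0.0786. Without both control-diet untreated replicate 3 and high-fat untreated replicate 2, 3 members passed for the diet, with adjusted p of 0.0570 for Bmp3, 0.0537 for Eng, 0.0884 for Tgfb3 and 0.0527 for Chrdl1; the 3 were Smad3 (0.0341), Acvrl1 (0.0496) and Bmpr2. With the skeletal muscle level as a covariate 4 passed, and Eng and Chrdl1 did not (adjusted p = 0.0553 for each). Over all 14189 genes, 1562 passed without both libraries and 2711 with the covariate.

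By role, 2 of 11 ligands, 2 of 13 receptors and co-receptors, 1 of 8 SMADs, 1 of 5 extracellular proteins and 0 of 4 ID genes rose with the diet averaged over antibody, with median log2 changes of 0.17, 0.08, 0.08, 0.31 and 0.04. Of all genes tested, 8.28% were called higher in this comparison and 54.1% had a positive change. All 5 extracellular proteins had positive changes: besides Chrdl1, Fstl3, which binds activin, had 0.61 ± 0.23 (SE; adjusted p = 0.0728), Fstl1 0.31 ± 0.13 (0.112), and Bmp1 and Fst were below these. Fstl1 had 17630 ± 2647 and 18190 ± 3244 normalized counts in high-fat antibody and untreated libraries, and 15180 ± 1557 and 14050 ± 4549 in control-diet antibody and untreated libraries (SD, n = 4 each).

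Taken without antibody, the diet comparison had 2 of 41 members past the threshold, Smad3 and Tgfb3, beside 8.15% of all genes tested. Smad3 was higher by 0.59 ± 0.11 on the log2 scale (SE; adjusted p = 0.0167, limma) and Tgfb3 0.70 ± 0.20 (0.0438), and Acvrl1 had 0.50 ± 0.16 without passing (0.0580). In 2 members, Smad3 and Eng, every high-fat untreated library was above every control-diet untreated one, beside 4.54% of all genes. The count depended on single libraries. It was 9 without control-diet untreated replicate 1, and 0 without control-diet untreated replicate 4 or high-fat untreated replicate 2, 3 or 4, when the adjusted p of Smad3 was 0.0752, 0.0517, 0.0540 and 0.0548 in that order. Over all 14189 genes, 4119 passed in the first of these fits and 0, 117, 82 and 0 in the others, in the same order. With all libraries 1157 passed, so the swing was not particular to the pathway genes. Tgfb3 passed in 5 of the 16 fits, without control-diet untreated replicate 1, control-diet antibody replicate 1 or 4, high-fat untreated replicate 1 or high-fat antibody replicate 3, and reached 0.128 otherwise. The count was also 0 without both control-diet untreated replicate 3 and high-fat untreated replicate 2, with 0.0954 for Smad3.

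With antibody, 0 of 41 members passed for the diet, beside 0.00705% of all genes, and 4 had an unadjusted p under 0.05, beside 18.1% of all genes. These were Eng with a log2 change of 0.44 (adjusted p = 0.120), Bmpr1a with 0.27 (0.171), Bmp3 with 0.77 (0.180) and Chrdl1 with 0.42 (0.265). Only Eng had all high-fat antibody libraries above all control-diet antibody libraries, beside 6.38% of all genes. Smad3 had a log2 change of 0.03 for the diet with antibody.

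Whether the antibody acted differently on each diet was tested as the interaction, in which 0 of 41 members passed, beside 0% of all genes, and 2 had an unadjusted p under 0.05, beside 6.18% of all genes. These were Smad3 and Bmpr1a. Smad3 had antibody log2 changes of -0.19 on the high-fat diet and 0.37 on the control diet, with a difference of -0.56 ± 0.16 (SE; adjusted p = 0.299, limma). Bmpr1a had 0.33 on the high-fat diet and 0.04 on the control diet, with a difference of 0.29 (adjusted p = 0.807). Acvr1c was next in order of p, with a difference of 0.38 (adjusted p = 0.860).

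Some marker genes also passed for the diet averaged over antibody. Of all genes, 19.4% passed there in either direction, 8.28% were called higher and 54.1% had a positive change. Pecam1, an endothelial adhesion protein, rose by 0.30 ± 0.08 on the log2 scale with the diet averaged over antibody (SE; adjusted p = 0.0206, limma), 1 of 6 endothelial markers to pass, all 6 with positive changes. The summed endothelial level was 13642 to 21686 and 13894 to 19132 normalized counts in high-fat antibody and untreated libraries, against 12058 to 15791 and 13257 to 16330 in control-diet antibody and untreated libraries. The part of endothelial cells in the changes of Acvrl1 and Eng was not tested. Of 8 progenitor and fibroblast markers, Dpt, a matrix protein, rose by 0.50 ± 0.15 (SE; adjusted p = 0.0318), and all 8 had positive changes. The summed progenitor level was 146397 to 193478 and 145523 to 203456 normalized counts in high-fat antibody and untreated libraries, against 112550 to 149499 and 74432 to 187418 in control-diet antibody and untreated libraries. In the last group replicate 1 was the highest and replicate 3 the lowest. The same order held for 12 of 41 pathway genes: Acvrl1, Bambi, Bmp1, Bmp2, Bmp4, Bmp7, Eng, Fstl1, Tgfb1, Tgfb2, Tgfb3 and Tgfbr2. The share of all tested genes with this order was not counted, so the 12 cannot be set against it. The part of progenitor cells in the changes of the pathway genes was not tested.

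Among other markers, the macrophage gene Cd68 rose with the diet averaged over antibody (0.60 ± 0.14; adjusted p = 0.0132, limma) as 1 of 6, and the thermogenic genes Cidea (-2.77 ± 0.78) and Cox8b (-1.31 ± 0.44) fell (SE; adjusted p = 0.0251 and 0.0479), 2 of 5. These counts stand beside 19.4% of all genes past the threshold in either direction. No marker of adipocytes, B cells, T cells, skeletal muscle, epithelium, Schwann cells or blood passed in any of the 7 comparisons. The 6 adipocyte markers summed to between 568904 and 785865 normalized counts over the libraries, and none of them was at or under 1 CPM throughout a group. B-cell markers, 4 of 5 with a row, summed to 26 to 138 normalized counts, and T-cell markers to 119 to 379. Only 1 of 6 epithelial markers has a row; the others were not analysed here. The libraries of 1 group correlated at 0.950 to 0.992 across genes on the log2 scale.

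The wider pathway was read from 5 further lists that hold none of the members. Of 19 other ligands of the family, 7 have a row and 6 were tested. With antibody averaged over diets 1 of these 6 rose, beside 1.54% of all genes called higher. Gdf5, a BMP-type ligand known for joint formation, rose by 0.76 ± 0.18 on the log2 scale (SE; adjusted p = 0.0344, limma). It had 101 ± 26.3 and 38.6 ± 11.3 normalized counts in antibody and untreated high-fat libraries, and 67.5 ± 21.8 and 59.5 ± 9.95 in antibody and untreated control-diet libraries (SD, n = 4 each). Its call held in 7 of the 16 fits that left out a library, with adjusted p from 0.0241 to 0.0787. No other ligand on that list passed in any comparison.

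Of 26 other co-receptors and intracellular regulators 25 were tested. With antibody averaged over diets 1 rose, beside 1.54% of all genes called higher. This was Pmepa1, which is induced by TGF-beta and removes SMAD2 and SMAD3 from the receptor. Pmepa1 had a log2 change of 1.11 ± 0.22 (SE), a 2.15-fold higher level (adjusted p = 0.0166, limma). It had 13710 ± 3387 and 6614 ± 2939 normalized counts in antibody and untreated high-fat libraries, and 11790 ± 3950 and 5511 ± 2012 in antibody and untreated control-diet libraries (SD, n = 4 each). Its call held in all 16 fits that left out a library, with adjusted p up to 0.0435. With the replicate number as a block in the fit, Pmepa1 did not pass (adjusted p = 0.0583, limma). With the diet averaged over antibody, Xiap, which links BMP receptors to TAK1, rose by 0.21 ± 0.06 and Rgma, a BMP co-receptor, fell by 0.18 on the log2 scale (SE 0.05; adjusted p = 0.0293 and 0.0297). In that comparison 19.4% of all genes passed in either direction.

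Of 33 other extracellular regulators listed, 28 have a row and 25 were tested. With the diet averaged over antibody 9 rose and 1 fell, beside 19.4% of all genes called in either direction and 8.28% higher, with a median log2 change of 0.22 beside 0.02 over all genes. The 4 with the smallest p were Bmper, a BMP-binding endothelial regulator (0.60 ± 0.10), Bgn, a proteoglycan that binds TGF-beta (0.52 ± 0.10), Lrrc32, which anchors latent TGF-beta on the cell surface (0.54 ± 0.12), and Thbs1, which activates latent TGF-beta (1.09 ± 0.29), with adjusted p of 0.00461, 0.00686, 0.00949 and 0.0200 (SE; limma). Thbs1 had 392 ± 173 and 984 ± 460 normalized counts in high-fat antibody and untreated libraries, against 206 ± 47.7 and 403 ± 192 in control-diet antibody and untreated libraries (SD, n = 4 each). The gene that fell was Furin, a protease that cleaves ligand precursors, by 0.18 on the log2 scale. Without antibody, Bmper, Bgn and Lrrc32 also rose with the diet, with log2 changes of 0.89 ± 0.14, 0.49 ± 0.14 and 0.57 ± 0.16 (SE; adjusted p = 0.0136, 0.0463 and 0.0464, limma). With antibody averaged over diets 0 of 25 passed, beside 2.52% of all genes, and the median change was 0.02.

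Of 21 genes known as TGF-beta targets, all tested, 6 rose and none fell with the diet averaged over antibody, beside 8.28% of all genes called higher, with a median log2 change of 0.39 beside 0.02 over all genes. The 4 with the smallest p were the collagen crosslinker Lox (0.54 ± 0.10), the contractile gene Tagln (0.39 ± 0.10), the coactivator Tgfb1i1 (0.55 ± 0.15) and the matricellular gene Ccn1 (0.76 ± 0.21), with adjusted p of 0.00660, 0.0155, 0.0209 and 0.0239 (SE; limma), and these 4 also passed without antibody. Col1a1 stands both on this list and among the progenitor markers. With antibody averaged over diets 0 rose and 1 fell, beside 2.52% of all genes in either direction. The gene that fell, Cdkn1a, a cell-cycle inhibitor that also answers to p53, was lower by 1.39 on the log2 scale (SE 0.18; adjusted p = 0.00247, limma). Cdkn1a had 474 ± 182 and 1340 ± 308 normalized counts in antibody and untreated high-fat libraries, and 392 ± 43.1 and 950 ± 285 in antibody and untreated control-diet libraries (SD, n = 4 each). The median change of the list with antibody was -0.04.

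Of 15 other genes listed here as BMP targets, 14 have a row and 12 were tested. Whether each of them answers to BMP signals in this tissue was not tested. With the diet averaged over antibody 4 rose, the transcription factors Runx2 (0.68 ± 0.14), Zeb2 (0.34 ± 0.09), Atoh8 (0.34 ± 0.10) and Zfp423 (0.43 ± 0.14), with adjusted p of 0.00824, 0.0189, 0.0292 and 0.0481 (SE; limma), beside 8.28% of all genes called higher. Runx2 also rose with the diet without antibody, by 0.73 ± 0.20 (SE; adjusted p = 0.0413). With antibody averaged over diets 0 of 12 passed, beside 2.52% of all genes, and 11 had a positive change, beside 47.6% of all genes. The median log2 change was 0.14 beside -0.01 over all genes. Ucp1 stands both on this list and among the thermogenic markers.

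The 5 members left out as low were described and not tested. Bmp5 lay between 8.91 and 24.8 normalized counts in the 16 libraries, Gdf15, a stress-induced GDF, between 0.501 and 16.2, and Inhba between 7.23 and 20.6. Nog, a BMP antagonist, lay between 3.94 and 30.9 and Bmpr1b between 0.563 and 15.4 normalized counts. The groups of all 5 overlapped.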

How the data were processed

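Poly-A RNA of mouse inguinal white adipose tissue was sequenced on stranded libraries, 16 in all, in 4 groups of 4. The tools limma 3.42.2, Subread 1.6.2 with featureCounts, STAR 2.7.0e and fastp 0.20.1 and the builds mm10 and GRCm38 are listed per the submitters' processing notes, without their roles. For 16091 genes the authors deposited a linear signal that they call normalized counts. How it was normalized, and whether by strand, is not given in the sources used here. Values were not whole and whole reads could not be recovered, so depth is unknown. Columns summed to 24.02 to 28.15 (in 1e6), 255 values were 0, and 0 column pairs were identical.

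A gene was tested if at least 4 libraries exceeded 24.49 (the median column total over 1e6, standing for 1 CPM): 14189 genes, with 1902 left out. Values were converted to log2(value + 1) and fitted with limma 3.58.1 in R 4.3.3, with 1 mean per group and variances moderated along a trend (12 residual and 3.07 prior degrees of freedom). Each of the 7 contrasts was adjusted by Benjamini and Hochberg over all 14189 genes; tests were two-sided, with a threshold of 0.05. The fit was tested on simulated data. Of the gene identifiers, 16081 were found in GENCODE vM21 (GRCm38), which gave positions and exon lengths, 15883 with the same symbol. Motifs were searched in RefSeq promoter windows.

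The members, the 5 further pathway lists and the 12 marker lists were chosen with earlier results of these data known. Values per library are given for each member past the threshold in any contrast and for the 3 members with the smallest p in each; other members by range, count and up to 2 of the most abundant per role; and genes of further lists where they passed, up to 4 per list and contrast. Alternatives were another pseudocount, no or a stricter filter, other scalings, no variance trend, a replicate block, fits on the compared groups only, a muscle covariate and leaving out libraries. The labels do not say that library numbers mark a shared origin, so the main fit has no replicate block. The labels name no batch. The 1 member without a row was left out.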

Additional observations from a re-analysis of the deposited data

Results flagged for a closer look

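Of 164 groups of 4 libraries (41 genes in 4 groups), 14 held 1 library far from the other 3, its gap over the group's range being above Dixon's 95% critical value; chance sets apart about 1 in 20 groups. In the high-fat antibody group, Acvr1 had 1584 normalized counts in replicate 2, against 759 to 870.2 in the other 3.

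In the high-fat untreated group there were 6 such values. Eng had 3201 normalized counts and Smad6 629.5 in replicate 1, against at most 2615 and 294.8 in the others. Smad5 had 2338 and Smad9 51.42 in replicate 2, the library with the highest muscle level, against 2594 to 2618 and 24.84 to 29.04. Smad4 had 1542 in replicate 3 and Id2 had 271.6 in replicate 4, against 1467 to 1471 and 347.8 to 353.8.

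In control-diet antibody replicate 4 there were 3, Fstl3 with 149.6, Smad2 with 1240 and Id2 with 304 normalized counts, against 67.87 to 74.77, 1159 to 1168 and 433.5 to 456.3. Among control-diet untreated libraries, Chrdl1 had 5129 and Acvr1 1111 in replicate 2, against at most 3435 and 768.5, and Fst had 356.8 and Bmpr2 2941 in replicate 3, against 615.7 to 661.9 and 2088 to 2194. Of the genes with such values, fits that left out single libraries are given by gene for Eng, Smad6 and Chrdl1. For the others these fits are given only as counts of pathway genes past the threshold, so the part of their flagged values is not given.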

How the results depend on the processing

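No named change of a gene turned its direction under the alternatives run. Another pseudocount, no filter, a stricter filter and both other scalings kept the counts of pathway genes past the threshold within 1.5 times; quantile normalization gave 7 in place of 6 for the diet averaged over antibody. For the diet without antibody (2), the count was 1 without a variance trend, 0 on the compared groups only, 1 with the muscle covariate, 0 without both libraries set apart earlier, and 0 to 9 when each library was left out. For the diet averaged over antibody (6), it was 3 without both libraries, 3 to 10 with a library left out and 4 with the muscle covariate. For the antibody averaged over diets (4), it was 2 without a variance trend and 0 to 5 with a library left out; for the antibody on the high-fat diet (0) it was 0 to 1. The cause was not tested. With the replicate number as a block the counts for the diet without antibody, the diet averaged and the antibody averaged were 0, 4 and 1; for the antibody Tgfb2 passed, and Inhbb, Smad6 and Id3 had adjusted p of 0.0580, 0.0880 and 0.105, and for the diet averaged over antibody Tgfb3 (0.0695) and Chrdl1 (0.0725) did not pass. The numbers share no stated origin: of 24 same-numbered pairs 10 correlated over 0.1 (range -0.54 to 0.49; all 6 pairs of replicate 2 among them), and 6 of 16 libraries matched their own number best. Over all genes, the diet without antibody passed 1157 genes, and 0 with the block, on the compared groups only or without both libraries, 128 with the muscle covariate, 726 without a trend and 0 to 4119 with a library left out. The antibody averaged over diets passed 358 genes, 123 with the block and 144 to 533 with a library left out; the diet averaged over antibody passed 2757, 1498 with the block, 1562 without both libraries and 1593 to 4721. The read depth is unknown, so no counting error could be given for single values.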
